A study of Mus musculus with 6 samples.

Results

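The genes described here encode the proteins of the mitochondrial ribosome. They were picked by name, as symbols in the count tables that begin with Mrpl or Mrps followed by a digit. A mean of at least 1 CPM (deposited counts at a common library size) over the 6 libraries was required. The family itself was proposed with earlier results of these data known. Of 23284 gene symbols, 76 carried such a name and 75 passed the minimum. The lowest gene inside it was Mrps33, with a mean of 4.39 CPM, and the only gene outside it was Mrpl23, with a mean of 0.43 CPM. All 75 also passed the filter on low counts and were among the 13039 genes tested.

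RNA was sequenced from MIN6, an established line of mouse insulinoma cells that stands in for the beta cell of the pancreas. In 3 libraries the cells had received a control ASO (control KD) and in 3 an ASO against Paupar (Paupar KD), a long noncoding RNA whose gene neighbours that of PAX6. ASO is the usual abbreviation of antisense oligonucleotide. The labels give no other genotype, agent or time for either group. They do not state separate cultures, so a p-value reflects how far these libraries spread, which may be technical. Library totals ran from 16973622 to 28693863 counts. Neither Paupar nor any gene of the mitochondrial genome matched a symbol, so the reduction of Paupar could not be checked. All 14 beta cell markers looked for were detected, led by Ins2 at 15995 ± 1422 CPM in the controls against 21916 ± 5659 CPM in Paupar KD (SD, n = 3 each). The adjusted p of Ins2 was 0.253 by edgeR, and Paupar KD replicate 1 was its highest library at 28450 CPM. Of the 14 markers, 10 had a positive log2 fold change and 4 a negative one. By edgeR 0 were called, against 0.0383% of all genes tested called higher and 0.00767% lower. Without overlap 3 were higher and 1 lower, against 13.7% and 13.3% of all genes tested. Of 14 markers of other cell types in the tables, 5 were at 0 counts in every library (Col3a1, Cdh5, Ptprc, Cpa1 and Prss1), and apart from Gcg none exceeded 2.48 CPM. The summed level of these 14 markers ran from 72.0 to 81.7 CPM in the controls and was 130, 67.4 and 45.7 CPM in Paupar KD replicates 1 to 3, nearly all of it Gcg. Of the 4 tested markers, the macrophage gene Cd68 was at 2.46 ± 0.02 and 1.10 ± 0.35 CPM in the controls and Paupar KD and Cela1, a pancreatic elastase, at 1.34 ± 0.25 and 0.78 ± 0.18 CPM, both lower without overlap (adjusted p = 0.133 and 0.244 by edgeR). The part of these markers in the results was not tested. The Paupar KD libraries were less alike than the controls, with a biological coefficient of variation over all genes tested of 18.8% against 4.95%.

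Mitochondria keep their own ribosome, which translates the few messages of the mitochondrial genome. Those messages encode core subunits of the respiratory chain and of ATP synthase, on which a beta cell depends to couple glucose to insulin release. The ribosomal RNAs are made in the organelle, whereas every protein of the particle is encoded in the nucleus, translated in the cytosol and imported. Many of these proteins descend from those of bacterial ribosomes, and others are found in mitochondria alone. The large subunit forms peptide bonds and feeds the new chain into an exit tunnel at the inner membrane. The small subunit binds the message and reads its codons. Transcription factors such as NRF1, the ETS factor GABPA and YY1 are known to act at promoters of many nuclear genes for mitochondrial proteins.

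By their place in the particle, 48 of the 75 genes encode large-subunit proteins and 26 encode small-subunit proteins. Mrps18a and Mrps30, though named for the small subunit, are counted with the large one, where their proteins sit. Mrps36 is counted with neither, because its protein is known as a component of the 2-oxoglutarate dehydrogenase complex. By ancestry, 46 genes encode relatives of bacterial ribosomal proteins and 29 encode proteins specific to mitochondria, among which Mrps18b is counted. The genes lie scattered over 17 chromosomes, with at most 10 on any one (chromosome 11). Their longest coding transcripts are short, with a median of 1213 bases and a range of 412 to 6073, against a median of 3042 bases over all genes tested.

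Stretches of DNA at the starts of a few of these genes are shown because the members described below differ in them, and because the known regulators bind short recognisable words. Windows from 250 bases before to 50 after the start were taken from RefSeq (GRCm38.p6), and 66 of the 75 genes had at least 1, for 72 windows in all. Each window occurred once, without a mismatch, in mm9, the build used for all coordinates given here. The following stretches run from 130 bases before to 20 after the start, 5′ to 3′ on the strand of the gene, with any word listed in the next paragraph in capitals. Mrps12 and Mrpl17 had the smallest p-values of the genes that stood higher in Paupar KD, and Mrpl1 and Mrpl45 were the members furthest lower. The choice was made with these values known.
Mrps12, chr7:29526821-29526970, minus strand: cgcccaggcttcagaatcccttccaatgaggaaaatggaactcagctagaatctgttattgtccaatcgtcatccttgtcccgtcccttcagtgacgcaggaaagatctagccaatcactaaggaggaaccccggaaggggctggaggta
Mrpl17, chr7:112959582-112959731, minus strand: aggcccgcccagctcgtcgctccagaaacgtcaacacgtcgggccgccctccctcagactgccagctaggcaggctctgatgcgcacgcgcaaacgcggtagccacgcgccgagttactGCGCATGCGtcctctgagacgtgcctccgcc
Mrpl45, chr11:97176900-97177049, plus strand: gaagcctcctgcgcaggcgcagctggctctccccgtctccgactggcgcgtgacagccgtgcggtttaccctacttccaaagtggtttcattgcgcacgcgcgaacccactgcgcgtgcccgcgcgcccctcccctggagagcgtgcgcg
Mrpl1, chr5:96639004-96639153, plus strand: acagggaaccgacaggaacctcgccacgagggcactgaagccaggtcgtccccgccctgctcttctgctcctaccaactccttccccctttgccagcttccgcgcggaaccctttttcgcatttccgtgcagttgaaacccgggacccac
The 4 starts differ in base composition: G and C make up 51.3% of the Mrps12 stretch, 62.0% of Mrpl1, 68.0% of Mrpl17 and 69.3% of Mrpl45. Of the words described next, only the NRF1 word of Mrpl17 lies in these 4 stretches.

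The words known for these regulators were commoner in the windows of mitoribosomal genes than in those of all genes tested. The NRF1 word GCGCATGCG, searched on both strands, was in 7 of 72 windows (9.72%) and in 3.58% of the 11932 windows of tested genes. The ETS word CCGGAAGT was in 12 windows (16.7%) against 7.65%. The YY1 word AAGATGGCG was in 8 windows (11.1%) against 2.80%. The other words searched were at about the level of all genes tested. GGGGCGGGG, bound by SP and KLF factors, was in 19.4% against 21.2%. The cAMP-response word TGACGTCA was in 2.78% against 3.10%, and the E-box CACGTG in 9.72% against 9.90%. Other gene lists were not searched by themselves. Over all 32851 RefSeq windows the NRF1, ETS and YY1 words were in 1.75%, 3.89% and 1.40%. A gene with several annotated starts adds more than 1 window, as Mrpl2, Mrpl48 and Mrps16 do.

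Examples of each word, in capitals with 10 bases to either side, show how they sit. They were picked, with the values known, among members that carry the word. NRF1 words can run into each other on the opposite strands, so that the palindrome of Mrpl9 and Mrpl39 holds 2 overlapping matches.
Mrpl32, chr13:14705309-14705337, minus strand, NRF1 word: gcggacttaaCGCATGCGCtcagcccgcg
Mrpl9, chr3:94247220-94247249, plus strand, NRF1 word: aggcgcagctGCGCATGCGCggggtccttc
Mrpl39, chr16:84735595-84735624, minus strand, NRF1 word: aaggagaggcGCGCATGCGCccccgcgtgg
Mrps26, chr2:130389468-130389495, plus strand, ETS word: ctccgcggccACTTCCGGgccgggcgca
Mrps22, chr9:98502092-98502119, minus strand, ETS word: acctctcgagCCGGAAGTtgctctatcg
Mrpl52, chr14:55045737-55045764, plus strand, ETS word: ggccacgcccACTTCCGGttcccttgct
Mrpl42, chr10:94964538-94964566, minus strand, YY1 word: agattgaagcAAGATGGCGagcgcgcggt
Mrpl35, chr6:71773737-71773765, minus strand, YY1 word: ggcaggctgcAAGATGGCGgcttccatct
Mrps18a, chr17:46247954-46247982, plus strand, YY1 word: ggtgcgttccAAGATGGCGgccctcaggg
The YY1 words of these 3 genes begin 12 to 28 bases after the annotated start. Of the 8 members with the word, only Mrpl36 and Mrps11 have it before the start, at 31 and 108 bases. The ETS word begins 15 bases before the start in Mrps26, 11 before it in Mrps22 and 2 after it in Mrpl52. The NRF1 words begin 23 bases before the start in Mrpl32, which has another 87 before it, 28 before it in Mrpl9 and 125 before it in Mrpl39. The start of Mrpl17 has its NRF1 word 11 bases before, in the stretch printed above. A match is a run of letters and says nothing of binding in these cells.

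In control KD the 75 genes were expressed at moderate levels. Their counts made up 0.30% of a control library and 0.33% of a Paupar KD library. CPM ran from 3.89 (Mrps33) to 86.4 (Mrpl49), with a median of 37.5, close to the median of 34.9 CPM over all genes tested. Per kilobase of transcript they stood higher, with a median of 28.8 CPM per kilobase against 12.1 over all genes tested, and 66 of the 75 lay above that value. The smallest count of any member in any library was 74, and the median over members of this smallest count was 670.

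Most of the proteins enter the particle in equal number, and the levels per kilobase of their messages were spread 22.9-fold. Mrpl28, a relative of bacterial L28, was highest at 80.6 ± 2.60 CPM per kilobase (SD, n = 3 control libraries). Below it stood Mrpl20 at 68.2 ± 7.26, Mrpl30 at 67.8 ± 4.44, Mrps18a at 67.0 ± 5.56 and Mrpl14 at 63.0 ± 3.98 CPM per kilobase. Mrpl28 lay above these 4 by more than the SDs of the control libraries. Of the 4, Mrpl20, Mrpl30 and Mrps18a lay within their SDs of one another. Mrpl14 lay within the SDs of Mrpl20 and Mrps18a, though beyond its own. All 5 encode large-subunit proteins. The lowest levels were those of Mrps33 at 3.52 ± 0.61, Mrps25 at 3.68 ± 0.17, Mrpl47 at 4.24 ± 0.26, Mrpl48 at 4.95 ± 0.09 and Mrpl19 at 5.51 ± 0.62 CPM per kilobase. Of these, Mrps25, Mrpl47, Mrpl48 and Mrpl19 have a longest annotated transcript of 3364 to 6073 bases, and dividing by that length lowers their values if shorter forms are the ones made. Mrps25 also shares 53.7% of its exonic bases with Nr2c2, Mrpl19 36.0% with AW146020, Mrpl47 13.1% with Actl6a and Mrpl14 11.2% with Tmem63b, all on the opposite strand. Mrpl30 has 2 near-identical copies, so the levels of these genes are uncertain. Large-subunit genes had a median of 35.7 CPM per kilobase (range 4.24 to 80.6) and small-subunit genes one of 22.4 (range 3.52 to 53.7), so the ranges overlapped over most of their width.

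**Figure D1:**
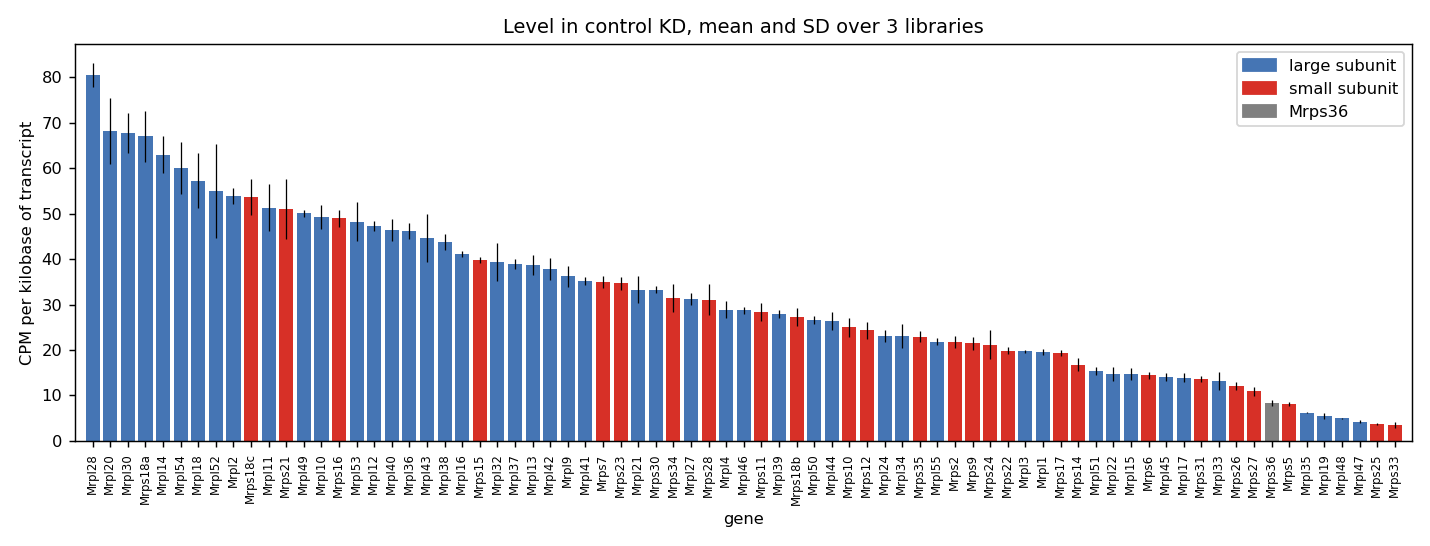
Level of each of the 75 genes in control KD as CPM per kilobase of the longest coding transcript (bars, mean; lines, SD over 3 libraries), coloured by subunit. Values descend from 80.6 for Mrpl28 to 3.52 for Mrps33, and large-subunit genes take the highest places.

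Mrps18a, Mrps18b and Mrps18c form a small family named for bacterial S18, whose products are known to sit in different places: that of Mrps18a in the large subunit, those of Mrps18b and Mrps18c in the small one. Per kilobase, Mrps18a stood at 67.0 ± 5.56, Mrps18c at 53.7 ± 3.93 and Mrps18b at 27.3 ± 2.0 CPM in control KD. None of the 3 passed the test. Mrps18a was at 61.9, 62.3 and 53.6 CPM in the controls against 59.5, 60.2 and 63.1 CPM in Paupar KD (adjusted p = 0.845 by edgeR). Mrps18b was at 27.4, 31.7 and 29.4 CPM in the controls against 30.7, 31.4 and 25.7 CPM in Paupar KD (adjusted p = 0.966 by edgeR). Mrps18c was at 45.7, 46.2 and 40.4 CPM in the controls against 48.4, 47.9 and 39.6 CPM in Paupar KD (adjusted p = 0.877 by edgeR). For all 3 the groups overlapped. Their log2 fold changes were 0.04, -0.01 and 0.04 with standard errors of 0.09, 0.11 and 0.11, which does not show that they were alike.

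Paupar KD was then compared with control KD. None of the 75 genes passed the test over all genes: edgeR called 0 higher and 0 lower at an adjusted p under 0.05, where 0.0383% of all genes tested were called higher and 0.00767% lower. At an unadjusted p under 0.05 the same test gave 18 members higher and 2 lower, against 9.63% and 8.11% of all genes tested. DESeq2 called 2 members higher (Mrps12 and Mrpl17; 2.67%) and 0 lower, against 2.11% and 1.79% of all genes tested. The limma-voom fit called 0, against 0.0383% of all genes tested higher and 0.00767% lower. Most members stood slightly higher in Paupar KD: 58 of 75 (77.3%) had a positive log2 fold change, against 51.0% of all genes tested. Their median log2 fold change was 0.14, a 1.10-fold difference, and that of all genes tested was 0.01. All 3 Paupar KD values lay beyond all 3 controls for 22 members that were higher and 3 that were lower (29.3% and 4.0%), where 13.7% and 13.3% of all genes tested did so. In bulk RNA, fewer cells that express a gene and less of its RNA per cell cannot be told apart.

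Transcript length moved with these differences over the whole table. Genes with a longest coding transcript under 1000 bases had a median log2 fold change of 0.20 (678 genes, 25 of them members), those of 1000 to 2000 bases 0.09, those of 2000 to 4000 bases 0.01 and those of at least 4000 bases -0.08. The 25, 31, 13 and 6 members in these classes had medians of 0.24, 0.14, 0.07 and -0.05. Members thus stood 0.03 to 0.06 above all genes of their own class, beside 0.14 over all classes. In classes of GC content the members stood above all genes of their class by 0.22 below 45% GC, 0.05 from 45% to 50%, 0.10 from 50% to 55% and 0.12 from 55%. The class from 45% to 50%, with 23 members, lay within the span of the length classes and the others above it. Across the 75 genes, which share the same 6 libraries, log2 length and log2 fold change had a Pearson correlation of -0.38 (Spearman -0.40). With an offset for transcript length and GC content in each library the members' median log2 fold change was 0.04 and 44 of 75 were positive (51.5% of all genes tested), with 0 called against 0.66% of all genes tested higher and 0.299% lower.

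**Figure D2:**
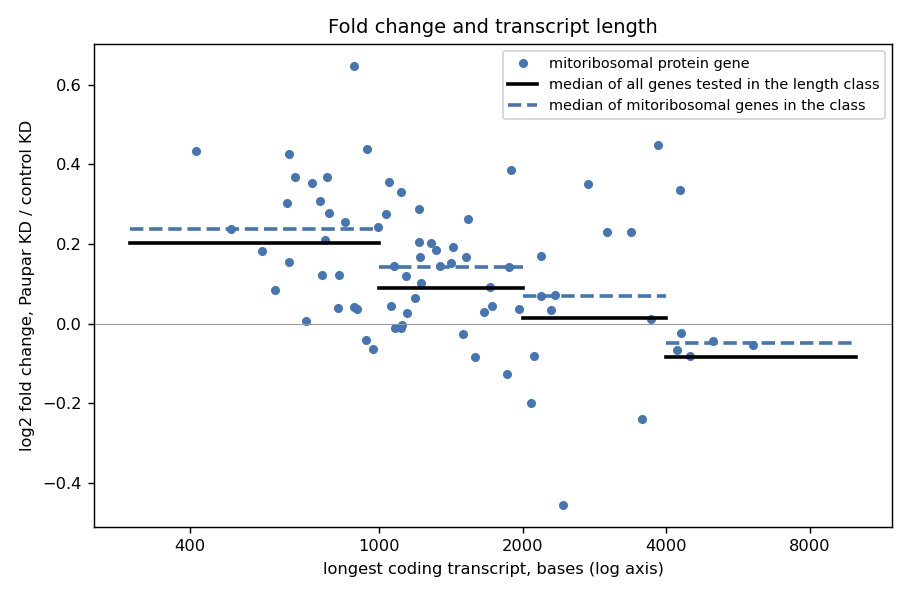
Log2 fold change (Paupar KD over control KD) of the 75 genes against the length of their longest coding transcript on a log axis. Black lines are medians of all genes tested in 4 length classes and dashed lines those of the members: both descend with length, from 0.20 and 0.24 under 1000 bases to -0.08 and -0.05 at 4000 bases or more.

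The difference was uneven over the 3 Paupar KD libraries. The median member differed from the control mean by log2 0.20 in replicate 1, 0.13 in replicate 2 and 0.04 in replicate 3, while the controls themselves had medians of 0.04, 0.03 and -0.06. Replicate 3 thus lay next to the higher controls. In replicate 1, 52 members lay above all 3 controls and 11 below all 3, against 41.9% and 42.6% of all genes tested. In replicate 2 there were 49 and 14, against 36.6% and 37.1%, and in replicate 3 there were 33 and 20, against 37.3% and 34.8%. For 45 of the 75 genes the highest of the 3 Paupar KD values was in replicate 1, and for 51 the lowest was in replicate 3, where 40.3% and 36.3% of all genes tested had theirs. The members' differences in replicates 1 and 2 had a Pearson correlation of 0.77 over the 75 genes, those in replicates 1 and 3 one of 0.37 and those in replicates 2 and 3 one of 0.47. These 3 sets of differences share the control mean. Without Paupar KD replicate 3, edgeR called 11 members higher and 1 lower (14.7% and 1.33%), against 4.65% and 5.67% of the 13148 genes tested. Those higher were Mrpl2, Mrpl17, Mrpl20, Mrpl28, Mrpl41, Mrpl42, Mrpl51, Mrpl53, Mrpl55, Mrps12 and Mrps34, and Mrpl45 was lower. Without Paupar KD replicate 1, Mrps12 was the 1 member called (adjusted p = 0.0312), against 0.934% of genes called higher and 0.972% lower, and the members' median log2 fold change was 0.08.

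**Figure D3:**
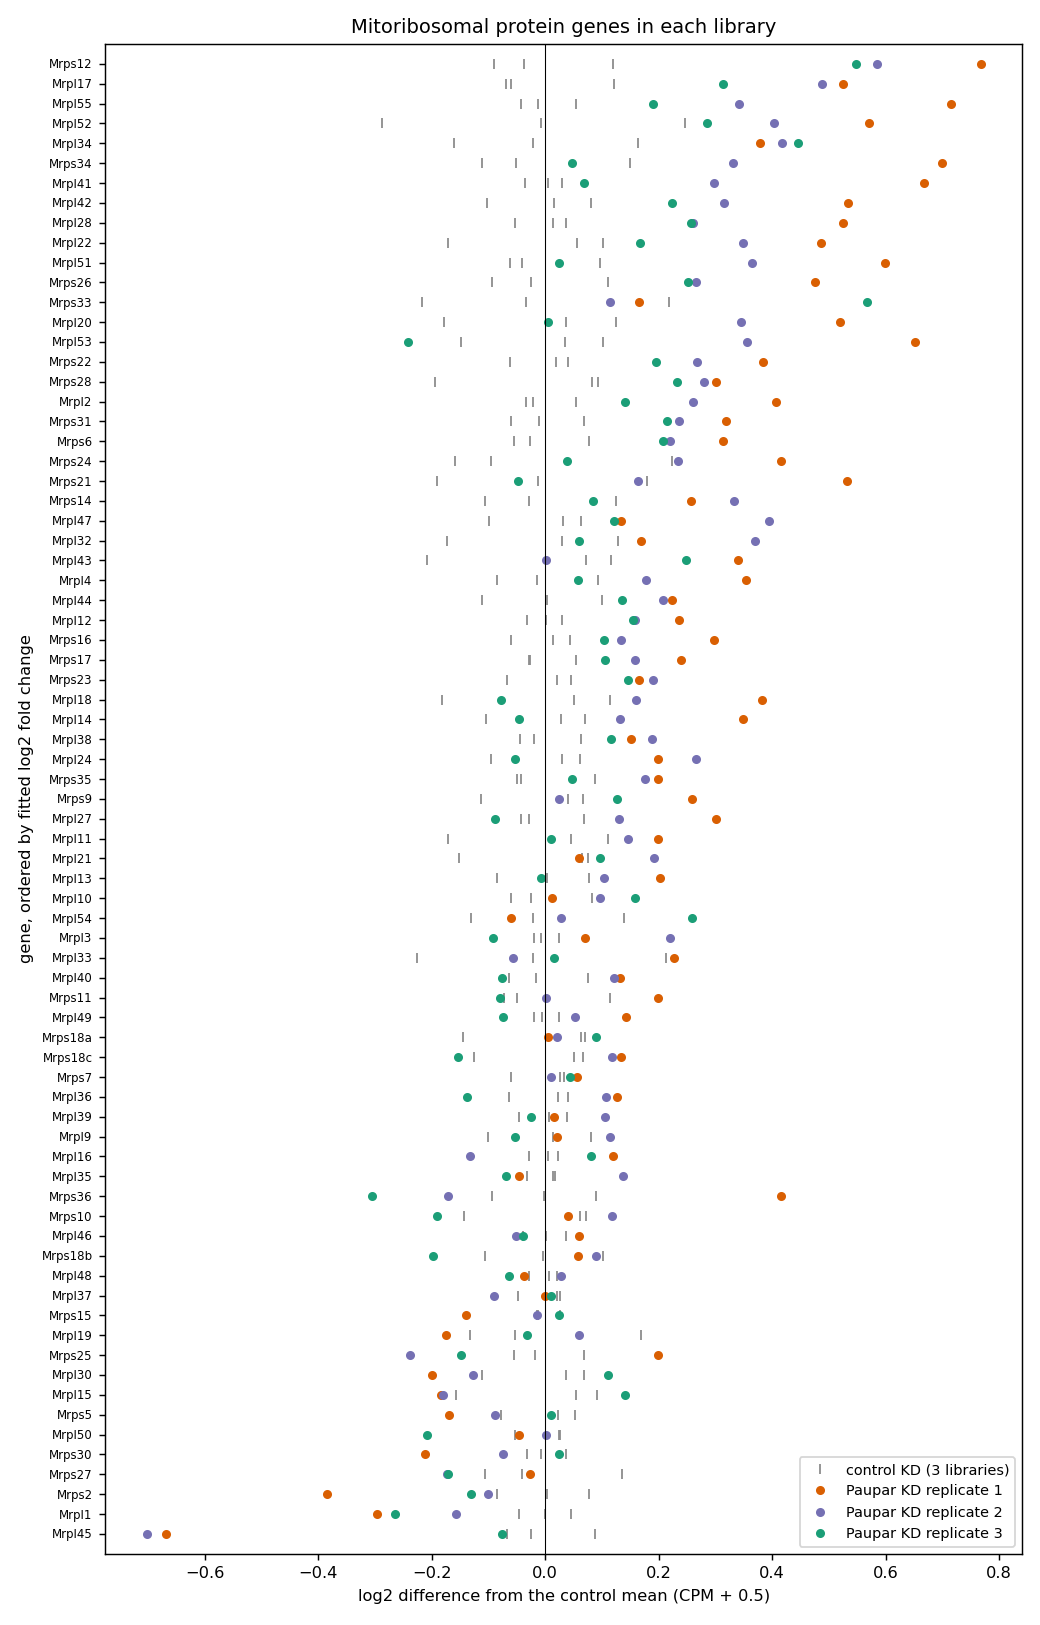
Each of the 75 genes in each library as the log2 difference of CPM (plus 0.5) from the control mean, ordered by fitted log2 fold change. Grey ticks are the 3 control libraries and dots the 3 Paupar KD libraries. Replicate 1 holds the highest Paupar KD value for 45 genes, and the dots of Mrps12 and Mrpl17 lie to the right of all their control ticks.

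Summed over the 75 genes, the level was 3109, 3063 and 2849 CPM in control KD replicates 1 to 3 and 3456, 3284 and 3116 CPM in Paupar KD replicates 1 to 3. The means were 3007 ± 138 and 3285 ± 170 CPM, a ratio of 1.09. The lowest Paupar KD value, in replicate 3, was barely above the highest control. The large-subunit sum overlapped narrowly between the groups, at 2216, 2179 and 2019 CPM in the controls and 2431, 2326 and 2211 CPM in Paupar KD. The overlap was that of 2211 with 2216 CPM. The small-subunit sum did not overlap, at 886, 878 and 825 against 1017, 953 and 900 CPM. The 48 large-subunit genes thus had means of 2138 ± 105 CPM in the controls against 2323 ± 110 CPM in Paupar KD, and the 26 small-subunit genes means of 863 ± 33.2 and 957 ± 58.9 CPM. These are ratios of 1.09 and 1.11, and the difference between the subunits was not tested.

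Mrps12 showed the largest difference of the 75. It encodes the relative of bacterial S12, a protein of the decoding centre where codons are read, and lies on chromosome 7 (29524660 to 29526839, minus strand, 3 exons). It was at 23.4, 20.1 and 20.9 CPM in the controls against 36.9, 32.5 and 31.6 CPM in Paupar KD. All Paupar KD libraries lay above all controls, and replicate 1 was the highest. The means were 21.5 ± 1.70 and 33.7 ± 2.84 CPM, 1.57-fold, with a log2 fold change of 0.65 ± 0.11 (SE), and edgeR's adjusted p was 0.0728. Across the alternatives its adjusted p ran from 1.51e-04 with DESeq2 to 0.493 without control KD replicate 2, and its log2 fold change from 0.46 to 0.71. Mrps12 was the only member with a fold change above 1.5. The lower end, 0.46, came with the offset for length and GC content (adjusted p = 0.0537). The promoter of Mrps12 printed above holds none of the 6 words searched.

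Mrpl17 came next by p-value. It encodes the relative of bacterial L17 near the exit of the peptide tunnel (chromosome 7, 112955172 to 112959613, minus strand). It was at 58.3, 51.1 and 51.4 CPM in the controls against 77.3, 75.4 and 66.7 CPM in Paupar KD. The groups did not overlap. The means were 53.6 ± 4.12 and 73.1 ± 5.64 CPM (log2 fold change 0.45 ± 0.10 SE, adjusted p = 0.133 by edgeR, and 0.0102 with DESeq2). With its annotated transcript of 3848 bases Mrpl17 was among the longer members, and its log2 fold change was 0.51 with the offset for length and GC content.

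Other large-subunit genes with no overlap had smaller differences. Mrpl34, a relative of bacterial L34, was at 16.7, 13.2 and 14.6 CPM in the controls and at 19.5, 20.004 and 20.4 CPM in Paupar KD. Its Paupar KD libraries lay closer together (19.96 ± 0.48) than its controls (14.9 ± 1.74), and replicate 1 was not the highest (adjusted p = 0.162 by edgeR). Mrpl28, the highest member per kilobase, was at 85.3, 86.7 and 81.4 CPM in the controls and at 122, 101.3 and 101.1 CPM in Paupar KD (adjusted p = 0.165 by edgeR). Replicate 1 stood apart, yet replicates 2 and 3 also lay above all controls. With the offset for length and GC content the log2 fold change was 0.20 for Mrpl34 and 0.17 for Mrpl28, against 0.43 and 0.35 without it.

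Mrpl42, which encodes a mitochondria-specific protein, was at 25.4, 26.6 and 23.4 CPM in the controls against 36.6, 31.4 and 29.4 CPM in Paupar KD (adjusted p = 0.186 by edgeR). Mrpl55 was at 21.3, 20.3 and 19.9 CPM in the controls against 34.0, 26.1 and 23.5 CPM in Paupar KD (adjusted p = 0.210 by edgeR). Mrpl2, a relative of the L2 protein near the peptidyl transferase centre, was at 57.7, 54.3 and 54.7 CPM in the controls against 73.8, 66.6 and 61.3 CPM in Paupar KD (adjusted p = 0.225 by edgeR). In all 3 the highest Paupar KD library was replicate 1 and the lowest replicate 3. Mrpl42 has 2 near-identical copies elsewhere in the genome, so its value is uncertain. With the offset for length and GC content the log2 fold changes were 0.23 for Mrpl42, 0.27 for Mrpl55 and 0.09 for Mrpl2, against 0.37, 0.44 and 0.27 without it.

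In some members replicate 1 lay far above the other Paupar KD libraries. Mrpl41, at 27.4, 27.9 and 26.6 CPM in control KD, was at 43.6, 33.6 and 28.6 CPM in Paupar KD (adjusted p = 0.264 by edgeR), and it has 1 near-identical copy. Mrps34, of the small subunit, was at 65.8, 54.9 and 57.2 CPM in the controls against 96.6, 74.7 and 61.3 CPM in Paupar KD, with overlap (adjusted p = 0.275 by edgeR). Mrpl53, at the base of the stalk, was at 33.1, 31.6 and 27.8 CPM in the controls against 48.7, 39.6 and 26.0 CPM in Paupar KD, the widest spread of any member (0.91 on the log2 scale; adjusted p = 0.457 by edgeR). In Mrpl53 replicate 3 lay below all controls. Mrpl53 shares 87.1% of its exonic bases with Ccdc142 on the same strand, and Mrps34 shares 37.0% with Nme3 on the same strand and 63.4% with Mapk8ip3 on the opposite one. Both values are therefore uncertain, and for Ccdc142 and Nme3 a known strand setting would not separate the reads. With the offset for length and GC content the log2 fold changes were 0.18 for Mrpl41, 0.08 for Mrpl53 and 0.17 for Mrpl52, against 0.37, 0.30 and 0.43 without it. Mrpl52, the shortest member at 412 bases, was at 27.0, 22.5 and 18.5 CPM in the controls and at 33.9, 30.1 and 27.7 CPM in Paupar KD (adjusted p = 0.227 by edgeR). Its controls were themselves spread widely (22.7 ± 4.26), yet the groups did not overlap.

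Mrps22 and Mrps26 were the other small-subunit genes among the 10 non-overlapping members with the smallest p. Mrps22, a mitochondria-specific protein gene, was at 23.1, 24.4 and 24.8 CPM in the controls against 31.6, 29.1 and 27.7 CPM in Paupar KD (adjusted p = 0.214 by edgeR). Mrps26 was at 56.1, 51.0 and 48.7 CPM in the controls against 72.4, 62.5 and 62.0 CPM in Paupar KD (adjusted p = 0.184 by edgeR). Both kept a difference of this sign in all 17 alternatives, at log2 0.22 to 0.33 and 0.26 to 0.40.

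**Figure D4:**
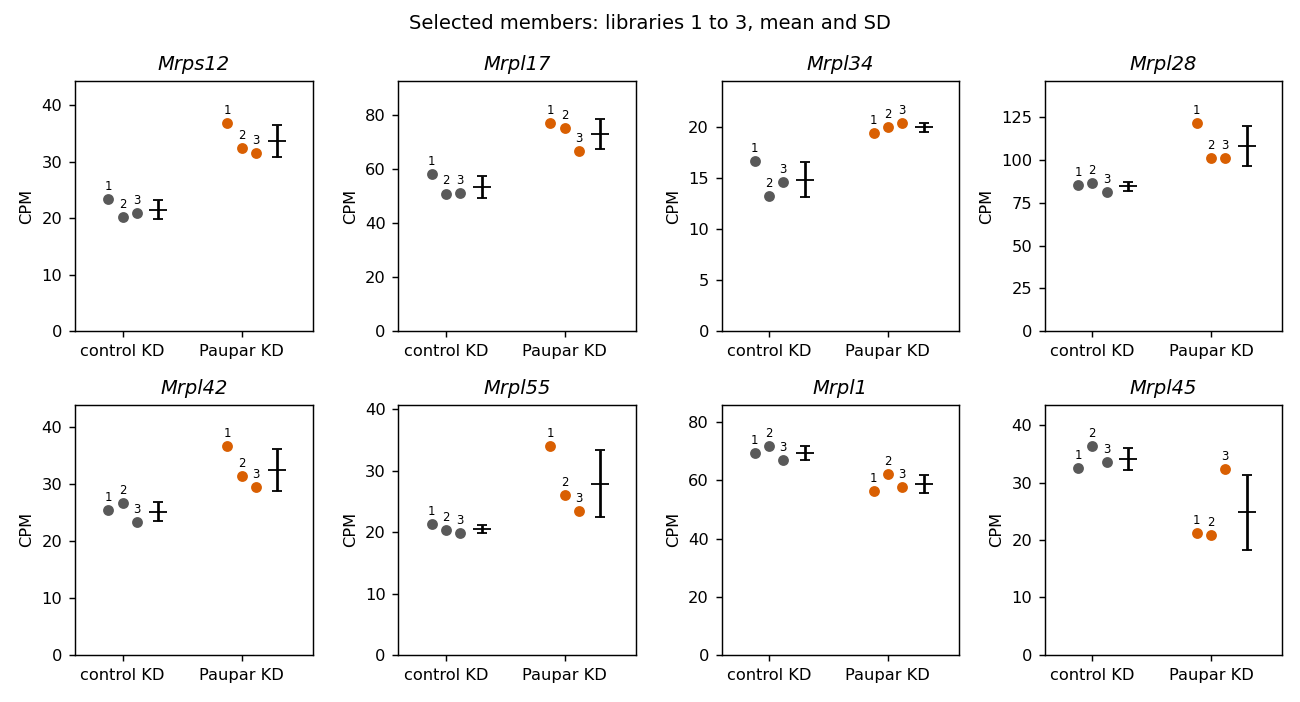
CPM of 8 members, chosen after their values were seen, in the 3 control KD and 3 Paupar KD libraries (dots numbered by replicate) with mean and SD beside them, each axis starting at 0. For Mrps12 the Paupar KD libraries sit at 31.6 to 36.9 against 20.1 to 23.4, while in Mrpl45 replicate 3 lies at the level of the controls.

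The other 17 members had negative log2 fold changes. Mrpl45, whose protein is known to hold the ribosome to the inner membrane beside the tunnel exit, had the largest difference downward. It was at 32.6, 36.3 and 33.5 CPM in the controls and at 21.3, 20.8 and 32.4 CPM in Paupar KD. Replicates 1 and 2 were far below the controls and replicate 3 just under the lowest of them. The means were 34.1 ± 1.94 and 24.8 ± 6.54 CPM (log2 fold change -0.46 ± 0.17 SE, adjusted p = 0.248 by edgeR), and without Paupar KD replicate 3 edgeR called it lower (adjusted p = 0.00905). Mrpl1, of the L1 stalk, was at 69.4, 71.7 and 67.2 CPM in the controls against 56.4, 62.2 and 57.7 CPM in Paupar KD, without overlap (log2 fold change -0.24 ± 0.08 SE, adjusted p = 0.227 by edgeR). Mrps2, a relative of bacterial S2, was at 47.8, 42.6 and 45.3 CPM in the controls against 34.6, 42.2 and 41.3 CPM in Paupar KD (adjusted p = 0.345 by edgeR). These 3 were the only members lower without overlap (4.0%, against 13.3% of all genes tested). With the offset for length and GC content Mrpl1 was at -0.15, Mrpl45 at -0.47 and Mrps2 at -0.23. Without it they were at -0.24, -0.46 and -0.20. Of the others with negative values, Mrps27, Mrps30, Mrpl50, Mrps5 and Mrpl15 had log2 fold changes of -0.13 to -0.07 with overlapping groups, and of -0.20 to -0.0011 with the offset.

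The members were next grouped by ancestry and by place in the particle. Of 46 genes related to bacterial ones and 29 specific to mitochondria, edgeR called none. Over all genes tested it called 0.0383% higher and 0.00767% lower. The median log2 fold change was 0.12 for the 30 large-subunit relatives, 0.07 for the 18 mitochondria-specific large-subunit genes, 0.16 for the 16 small-subunit relatives and 0.22 for the 10 mitochondria-specific small-subunit genes. The 5 genes of the L7/L12 stalk and its base, where translation factors dock, were all positive, with a median of 0.12. Of them Mrpl12 was at 63.5, 60.8 and 62.2 CPM in the controls against 73.4, 69.5 and 69.3 CPM in Paupar KD, with no overlap (adjusted p = 0.276 by edgeR). Of 5 tested genes at the tunnel exit, 4 were positive, among them Mrpl17, and Mrpl45 was the exception. Of 6 genes of the central protuberance 4 were positive, with a median of 0.09. The large and small subunits had medians of 0.12 and 0.17, and the difference between them was not tested.

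Mrps36, the gene counted with neither subunit, was at 6.25, 5.83 and 5.45 CPM in the controls and at 7.96, 5.14 and 4.63 CPM in Paupar KD, so that replicate 1 lay above the controls and the other two below (adjusted p = 0.991 by edgeR). It has 7 near-identical copies in the genome, the most of any member, with up to 99.4% identity. Mrpl23, the gene outside the 1 CPM minimum, has 1 copy of 99.6% identity. How reads were divided among such copies is not given in the sources used here. In all, 10 members have a copy of at least 90% identity over at least 70% of the transcript, and 22 share exonic bases with another gene. The 44 members with neither had a median log2 fold change of 0.11, with 33 positive.

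Mitoribosomal genes often start back to back with another gene. Of the 75, 25 (33.3%) had a protein-coding gene starting on the opposite strand within 1000 bases upstream or overlapping by at most 500, against 14.2% of the tested protein-coding genes. Several such neighbours also serve mitochondria: Sars2, which charges the mitochondrial serine tRNA, starts 171 bases from Mrps12, Peo1, the mitochondrial DNA helicase gene, overlaps the start of Mrpl43, and Mrpl46 and Mrps11 start against each other. The neighbours and the members were set side by side, with no test of the difference, and the Mrpl46 and Mrps11 pair counted from both sides. Of the 25 pairs, 18 members and 9 neighbours were positive, and in 10 pairs the member was positive and the neighbour negative. The medians were 0.09 for members and -0.11 for neighbours. Sars2 was at 15.9, 14.8 and 16.2 CPM in the controls against 16.7, 12.8 and 13.6 CPM in Paupar KD (adjusted p = 0.649 by edgeR), with overlapping groups beside the separate groups of Mrps12. Mrpl46 was at 31.9 ± 0.86 and 31.7 ± 1.38 CPM and Mrps11 at 29.9 ± 2.19 and 30.9 ± 3.17 CPM, with overlapping groups in both.

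Members with and without each word were set side by side, with no test. The 7 members with an NRF1 word had a median log2 fold change of 0.09 and the other 59 with a window 0.14. For the ETS word the medians were 0.15 for 12 genes with it and 0.13 for the rest, and for the YY1 word 0.04 for 8 genes and 0.15. The genes of the regulators themselves did not pass the test. Nrf1 was at 42.9, 44.3 and 41.3 CPM in the controls against 45.7, 43.0 and 41.9 CPM in Paupar KD (adjusted p = 0.907 by edgeR). Gabpa was at 104, 105 and 94.8 CPM in the controls and at 82.2, 114 and 120 CPM after Paupar KD (adjusted p = 0.862 by edgeR). Yy1 was at 125, 118 and 117 CPM in the controls and at 92.8, 110 and 112 CPM in Paupar KD, lower without overlap (adjusted p = 0.329 by edgeR). Ppargc1a, the coactivator of mitochondrial biogenesis, was at 3.44 ± 0.515 and 4.06 ± 1.73 CPM (adjusted p = 0.704 by edgeR). Of 12 such regulators 6 were positive and 6 negative, and the smallest p was that of Gabpb2, at 142 ± 1.21 and 123.1 ± 11.7 CPM (adjusted p = 0.291 by edgeR). Gabpb2, Yy1 and Gabpb1 were lower without overlap, and 0 of the 12 were higher without it. Over all genes tested the shares were 13.3% lower and 13.7% higher.

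Some proteins of the mitoribosome have genes with other names. Of 8 tested, 6 were positive, with a median log2 fold change of 0.12, and edgeR called 0. At an unadjusted p under 0.05, 3 were higher and 0 lower, against 9.63% and 8.11% of all genes tested. The 8 include Lactb (log2 fold change 0.14), whose protein is not a known part of the particle. Mrp63 was at 38.5, 31.6 and 29.7 CPM in the controls against 51.2, 42.5 and 39.8 CPM in Paupar KD, without overlap (adjusted p = 0.209 by edgeR). Ict1, which encodes a large-subunit protein able to release stalled chains, was at 47.3 ± 2.47 and 55.2 ± 4.45 CPM (adjusted p = 0.276 by edgeR). Dap3, a GTP-binding protein of the small subunit, was at 102 ± 2.35 and 97.5 ± 6.29 CPM (adjusted p = 0.730 by edgeR).

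Of 14 translation factors and cofactors 8 were positive and 6 negative. Here too edgeR called 0, against 0.0383% of all genes tested called higher and 0.00767% lower. At an unadjusted p under 0.05, 4 of the 14 were higher and 2 lower, against 9.63% and 8.11% of all genes tested. Guf1, the mitochondrial elongation factor 4, had the smallest p of them. It was at 51.9, 55.8 and 54.98 CPM in the controls against 33.9, 41.2 and 40.5 CPM in Paupar KD, opposite to most members and without overlap (log2 fold change -0.49 ± 0.10 SE, adjusted p = 0.115 by edgeR). Lrpprc, which stabilises mitochondrial messages, was at 199 ± 7.57 and 167 ± 20.2 CPM, also without overlap (adjusted p = 0.266 by edgeR). Mtrf1, of the release factor family, was at 9.81 ± 0.23 and 12.8 ± 0.71 CPM (adjusted p = 0.176 by edgeR), and Tufm, the elongation factor Tu gene, at 6.28 ± 0.36 and 7.40 ± 1.78 CPM (adjusted p = 0.536 by edgeR).

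Of 24 genes for assembly of the particle and modification of its RNA, 19 were positive, with a median log2 fold change of 0.08. By edgeR 0 were called, against 0.0383% of all genes tested called higher and 0.00767% lower. At an unadjusted p under 0.05, 2 were higher and 0 lower, against 9.63% and 8.11% of all genes tested. Trmt61b, which methylates mitochondrial RNA, was at 7.66, 7.45 and 7.47 CPM in the controls against 10.7, 12.4 and 9.65 CPM in Paupar KD, the smallest p of the list (adjusted p = 0.147 by edgeR). Of 19 mitochondrial tRNA synthetases and amidotransferase subunits 10 were positive, the smallest p being that of Vars2 at 26.1 ± 1.40 and 31.2 ± 5.48 CPM (adjusted p = 0.348 by edgeR). Of 9 genes of mitochondrial DNA replication and transcription 5 were positive. In neither list nor among the regulators did a gene reach even an unadjusted p under 0.05 by edgeR. Polg, the DNA polymerase, was at 51.2 ± 2.28 and 56.4 ± 3.62 CPM (adjusted p = 0.431 by edgeR), and Tfam, which packages the mitochondrial genome, was at 76.6, 82.7 and 73.5 CPM in the controls and at 56.8, 61.8 and 84.0 CPM in Paupar KD (adjusted p = 0.493 by edgeR).

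The ribosome of the cytosol and the respiratory chain were set beside the members in each library. The 76 tested cytosolic ribosomal protein genes had a median log2 fold change of 0.14, with 57 positive, and the 80 nuclear genes of oxidative phosphorylation subunits one of 0.19, with 70 positive. By edgeR 0 of either list were called, against 0.0383% of all genes tested called higher and 0.00767% lower. At an unadjusted p under 0.05, 10 were higher and 3 lower in the first, and 18 higher and 1 lower in the second. Of all genes tested, 9.63% were higher and 8.11% lower at that threshold. Both lists are also made of short transcripts, with medians of 860.0 and 931.5 bases, and were added after the other lists. In Paupar KD replicates 1 to 3 the medians from the mean of the controls stood at 0.13, 0.12 and 0.03 for the cytosolic ribosome, 0.37, 0.10 and 0.05 for oxidative phosphorylation and 0.20, 0.13 and 0.04 for the mitoribosome. The 3 lists were thus nearly alike in replicates 2 and 3 and furthest apart in replicate 1. In control KD replicate 3 all 3 lists lay below the control mean, at -0.10, -0.10 and -0.06. Differences between the lists were not tested.

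**Figure D5:**
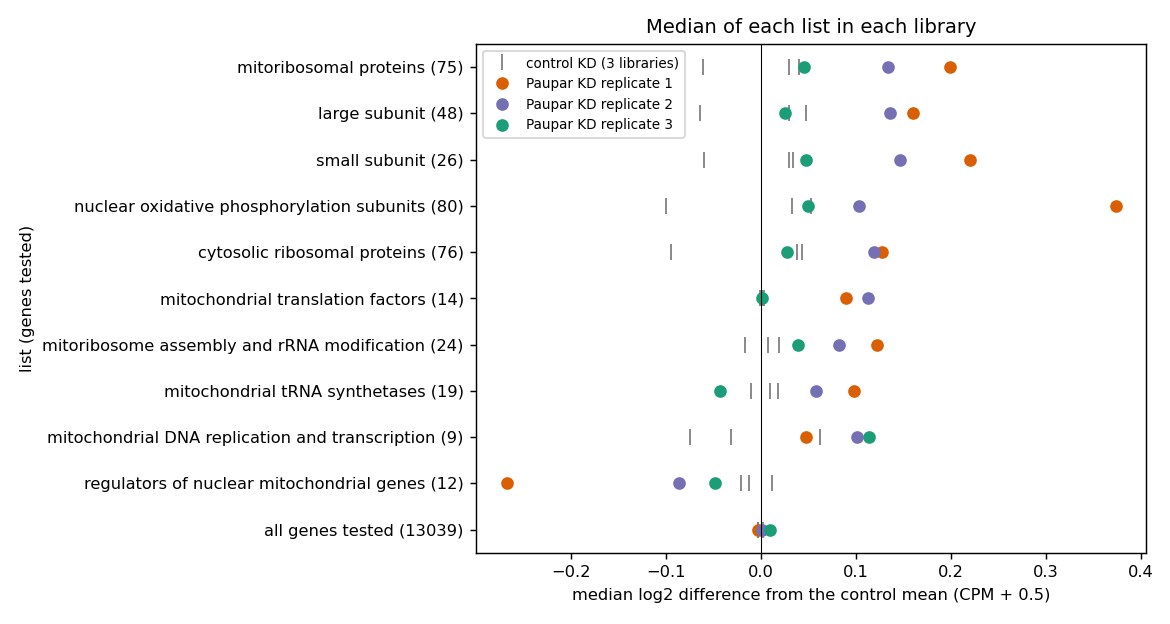
Median log2 difference from the control mean (CPM plus 0.5) of each gene list in each library, with the number of genes tested in brackets. Grey ticks are control libraries and dots Paupar KD libraries. The mitoribosome lies at 0.20, 0.13 and 0.04 in Paupar KD replicates 1 to 3, and replicate 3 lies beside its higher control ticks.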

How the data were processed

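The authors deposited, per sample, raw read counts for 23284 gene symbols. The tools listed in the submitters' processing notes are HISAT2, HTSeq, DESeq2 and CASAVA 1.8.2, with build mm9. What each did, the strand setting and the annotation: not given in the sources used here. Members and lists were chosen with earlier results of these data known.

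Counts were fitted for all genes with edgeR 4.0.16 in R 4.3.3: filterByExpr (minimum count 10), TMM scaling, robust quasi-likelihood test, Benjamini-Hochberg adjustment over 13039 genes, threshold 0.05. CPM use the TMM factors. Library differences are log2(CPM + 0.5). Standard errors are the log2 fold change over the square root of F. Alternatives used DESeq2 1.42.0, limma 3.58.1 and the settings given with the limits. On simulated counts of 13039 genes edgeR called 27 of 67 genes changed 1.5-fold, 59 of 67 changed 2-fold and 66 of 66 changed 4-fold. It made 12 false calls among the unchanged genes. The simulation gave both groups the same spread and no shift with transcript length. In the data the coefficient of variation was 18.8% in Paupar KD and 4.95% in control KD, so these rates may not hold here. All pairs of libraries in a group differed beyond sampling noise (chi-square per gene 3.47 to 82.2). Gene models are GENCODE M1 on NCBIM37 (mm9), which gave a coding transcript for 94.96% of tested genes. Copies were searched with blastn.

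Members named in the text were the 8 with the largest difference in each direction (mean of at least 5 CPM), the 10 with the smallest p and no overlap, the 5 highest and 5 lowest per kilobase, the 5 most spread in Paupar KD, the S18 family, Mrps30, Mrps36, the members nearest 1 CPM, the gene of smallest p in each related list with Tufm, Tfam, Nrf1, Gabpa and Ppargc1a, and neighbours of named members. Mrpl12, Mrpl36, Mrpl43, Mrpl46, Mrpl49, Mrpl51, Mrps11, Mrps16, Peo1, Yy1, Gabpb1, Cd68, Cela1, Ict1, Dap3, Lactb, Lrpprc, Mtrf1, the examples of promoter words, and the cytosolic ribosome and oxidative phosphorylation lists were chosen after values were seen.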

Additional observations from a re-analysis of the deposited data

How the results depend on the processing

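Of all genes tested, edgeR called 5 higher and 1 lower. DESeq2 gave 275 and 233, length and GC offsets 86 and 39, dropping the low-count filter 36 and 24, a filter at 1 CPM 2 and 0, and upper-quartile factors 3 and 0. At an adjusted p under 0.1 there were 55 and 38, and under 0.01 there were 1 and 0. Leaving out 1 library gave 0 to 611 higher and 0 to 745 lower, the highest counts without Paupar KD replicate 3 and 123 and 128 without replicate 1. Mitoribosomal genes called higher were 2 with DESeq2 (Mrps12, Mrpl17), 1 with no low-count filter and 1 at an adjusted p under 0.1 (Mrps12 both times), and 0 to 11 on leaving out 1 library, with 0 to 1 lower. Their median log2 fold change was 0.036 with length and GC offsets and 0.076 to 0.175 on leaving out 1 library. Where a library was left out, 2 libraries stood in its group. The causes were not tested.

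Same-numbered libraries had deviations correlated at 0.072, -0.011 and 0.006, so the numbers were not taken as pairing. Paupar KD replicate 1 correlated best with its own number and the other two did not. With the replicate block 1 gene was higher and 0 lower. With the block and the offsets together 6 were higher and 0 lower, and the members' median was 0.043. Neither called a member.

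Of 33 named members, 25 kept their sign in all 17 alternatives, and none of the other 8 was called in any. With length and GC offsets, then with the replicate block added, log2 fold changes of other sign were -0.1002 and -0.1006 (Mrpl14), 0.036 and 0.043 (Mrpl19), 0.0535 and 0.0525 (Mrpl48), -0.136 and -0.143 (Mrps18a), -0.0590 and -0.0601 (Mrps18c), 0.0936 and 0.0664 (Mrps25), and -0.143 and -0.160 (Mrps36). Upper-quartile factors gave 0.0043 (Mrpl48) and 0.0177 (Mrps18b). Mrps36 was at -0.0068 with no filter, -0.0012 with the filter at 1 CPM, -0.0443 with limma-voom and -0.0196 with the block. Leaving out 1 library, the range was -0.109 to 0.0484 for Mrpl19, -0.0276 to 0.0726 for Mrps18a, -0.0738 to 0.0752 for Mrps18b, -0.0209 to 0.129 for Mrps18c, -0.201 to 0.0269 for Mrps25 and -0.263 to 0.156 for Mrps36.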
